A study of Mus musculus with 9 samples.

Results

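The synaptic vesicle and synapse scaffold genes described here are 52 genes whose proteins fill, dock, release and recycle transmitter vesicles or hold receptors and adhesion molecules at the synapse. They were taken by gene name from a table of 34745 genes, by a rule that uses names and no measured value but was drawn up with earlier results of these data known, and 40 act mainly in the presynaptic terminal and 12 mainly on the postsynaptic side. RNA was sequenced from mouse spinal cord of a study of complete transection at T9, with 3 libraries at day 0, 3 at day 3 and 3 at day 21 after injury. Titles state the day for the later groups, and the third group, titled N without explanation, was taken as day 0 because the design names 0, 3 and 21 days. No source used here gives the strain, age or sex of the mice, the length of cord taken or a sham operation, so injury and surgery cannot be told apart. Since nothing states that each library is a different animal, the p-values cover the spread among these libraries, and that spread may be technical only.

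A vesicle is filled with transmitter by a vesicular transporter, held near the release site by synapsins and Rab3, docked and primed at the active zone, and fused by SNARE proteins when calcium binds a synaptotagmin. Its membrane is then taken back by endocytosis and used again. Opposite the active zone, scaffold proteins of the PSD-95, Shank and Homer families hold glutamate receptors, and neuroligins and related adhesion proteins bind presynaptic neurexins across the cleft. In the spinal cord these proteins serve synapses of descending axons, of sensory axons whose cell bodies lie in the dorsal root ganglia, and of local interneurons.

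Many vesicle genes carry in their promoter the neuron-restrictive element RE1, at which the repressor REST keeps neuronal genes off in other cells. RefSeq promoter sequence on GRCm38.p6, from 250 bases before to 50 bases after the start site, could be matched by name to 40 of the 52 genes, 32 presynaptic and 8 postsynaptic. Both strands were searched for the RE1 core, CAGCACC then any 2 bases then GGACAG, allowing 2 mismatches among its 13 fixed letters. A gene counted once if any of its listed start sites had a match, and the number of start sites per gene was not accounted for. The core was found in 4 of the 40 genes (10%), all presynaptic, against 599 of all 27025 genes with promoter sequence (2.22%). The 4 stretches are shown because they are the promoter matches among the members. Capitals mark the 15 bases of the match, all stretches read 5′ to 3′ along the gene, and in Rph3a and Slc17a6 the core lies on the opposite strand.
Syn1: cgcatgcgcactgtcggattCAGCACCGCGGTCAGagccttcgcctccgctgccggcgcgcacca
Rph3a: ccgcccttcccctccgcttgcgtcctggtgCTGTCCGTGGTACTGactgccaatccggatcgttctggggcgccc
Slc17a6: gcttcctCTGTCCGTGGTCCTGa
Syt2: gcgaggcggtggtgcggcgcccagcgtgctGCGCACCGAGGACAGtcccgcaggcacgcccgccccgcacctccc
These lie at chrX:20921104-20921168, minus strand, at chr5:121009586-121009660, minus strand, at chr7:51621857-51621879, plus strand, and at chr1:134646460-134646534, plus strand. The first 3 matches have 1 mismatch each and the Syt2 match has 2. The cyclic AMP response element, TGACGTCA on either strand without mismatch, was found in 1 of the 40 genes (2.5%), Syn1, against 549 of all 27025 genes (2.03%). A match of letters is a description of sequence and shows no binding.

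Total counts per library ran from 14299679 to 24022923, and the 52 genes took 2.08 to 2.19% of counts at day 0, 1.04 to 1.06% at day 3 and 1.40 to 1.56% at day 21. Each of the 52 had counts in all 9 libraries and passed the expression filter. Levels are the authors' FPKM, counts scaled by gene length and by library total, and changes are log2 fold changes from edgeR fits to the counts of 16494 genes, called at an adjusted p under 0.05. Day 21 replicate 2 stood apart, with a sample weight of 0.0583 in limma's voom against 1.91 and 1.02 in the other day 21 libraries, and day 0 replicate 1 had 0.354 against 1.75 and 2.03. In day 21 replicate 2 the longer of these genes were low, and most of the day 21 changes against day 0 that it moved are given with and without it. Markers of neurons outside the synapse, of astrocytes and of oligodendrocytes were present in every library.

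Most of the genes were lower at both days after transection. At day 3 against day 0, 40 of 52 fell and 4 rose, against 19.5% of all tested genes lower and 24.8% higher. Their median log2 fold change was -1.05, against 0.01 over all genes. At day 21 against day 0, 29 fell and 0 rose, against 11.3% of all genes lower and 17.9% higher, with a median of -0.60 against 0.02. Behind the 0 stand 0 genes higher at an unadjusted p under 0.05 in edgeR, 0 in DESeq2 and 1 in voom with sample weights. The 29 became 17 without day 0 replicate 2 or without day 0 replicate 3, and 35 without day 21 replicate 2. Over all genes 1864 of 16494 were lower with all libraries, and 1072 of 16808, 1011 of 16774 and 3748 of 16739 in those fits. Between day 21 and day 3, 16 were higher and 3 lower at day 21, against 11.7% and 16.1% of all genes, with a median of 0.37 against 0.02. The 16 became 32 without day 21 replicate 2 and 9 without day 3 replicate 1 or without day 3 replicate 2. Higher calls over all genes were 3941 of 16739, 1006 of 16723 and 1066 of 16732 in those fits, against 1928 of 16494 with all libraries. In bulk tissue fewer cells of a type and less RNA per cell cannot be told apart. The comparisons with day 0 share the same 3 day 0 libraries. Directions are relative to all genes, and with libraries scaled on neuron markers 1 of the 52 was lower and 10 were higher at day 3 than at day 0. Under that scaling 0.873% of all genes were lower and 75.6% higher.

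**Figure D1:**
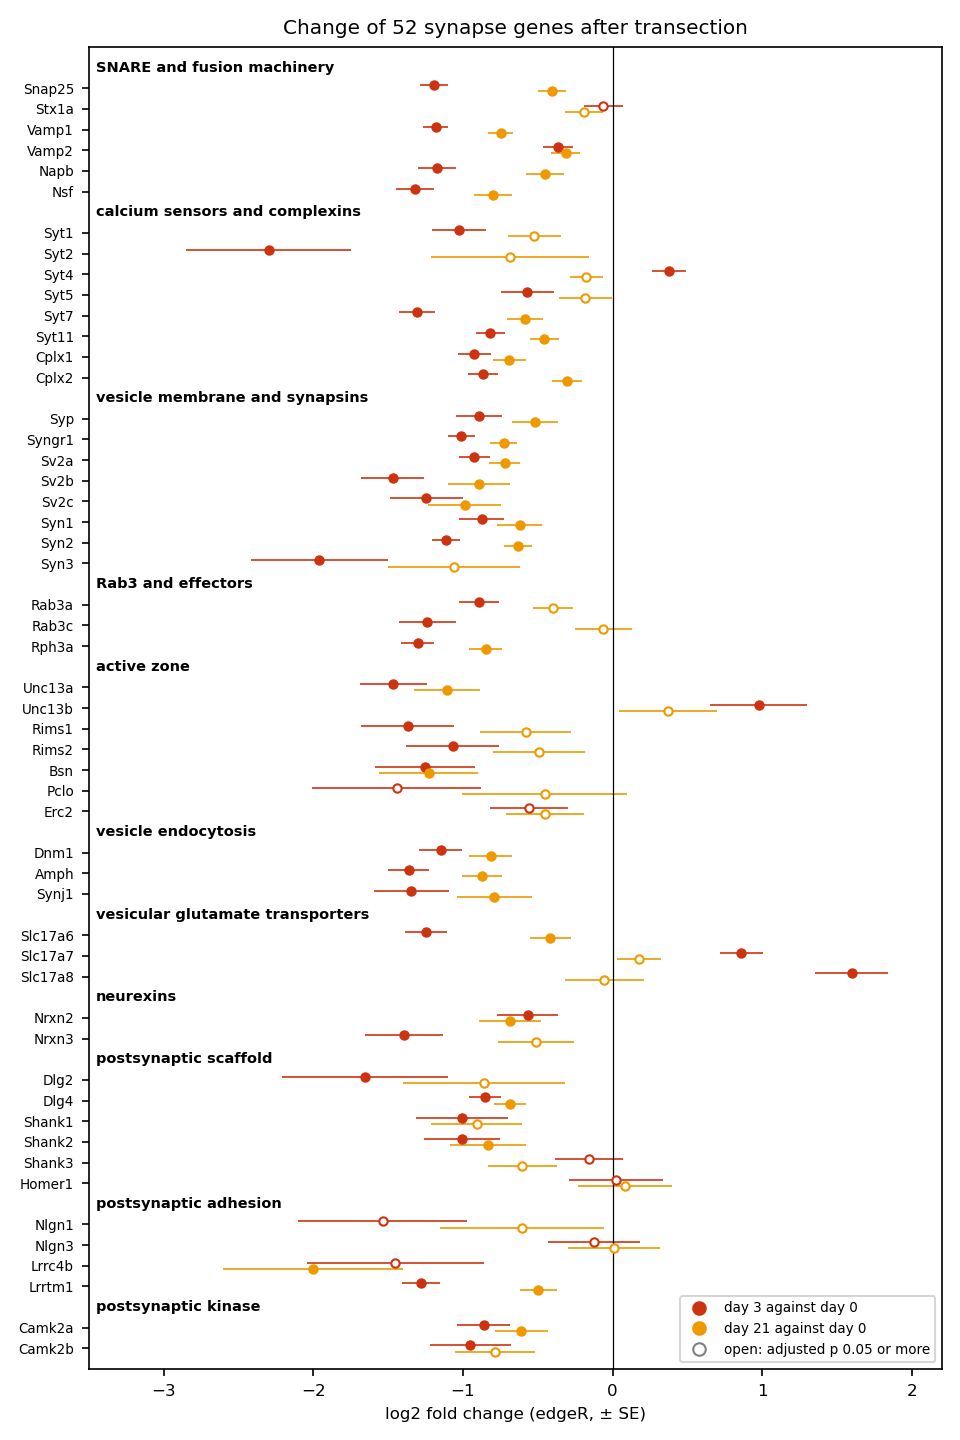
Log2 fold change (edgeR, x axis, with SE as bars) of each of the 52 genes, grouped by role, at day 3 (red) and day 21 (orange) against day 0. Filled points are called at an adjusted p under 0.05, and Syt4, Unc13b, Slc17a7 and Slc17a8 are the 4 filled points right of 0.

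The SNARE and fusion genes encode the proteins that pull a vesicle onto the plasma membrane and the ATPase complex that takes the spent proteins apart. At day 3, 5 of the 6 fell, against 19.5% of all tested genes, and Stx1a was not called. Snap25, the plasma membrane SNARE of nerve terminals (chr2:136713453-136782428), was at 309, 329.8 and 331 FPKM at day 0, 147, 147 and 147 at day 3, and 269, 250.5 and 279 at day 21. All day 3 values were below all day 0 values and all day 21 values lay between them, and the change was -1.19 ± 0.09 (edgeR adjusted p 8.89e-06) at day 3 and -0.41 ± 0.09 (edgeR adjusted p 0.00984) at day 21. At day 21 it was also higher than at day 3, by 0.79 ± 0.09 (edgeR adjusted p 0.000365).

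Nsf, the ATPase that separates used SNARE complexes, was at 103, 102 and 102 FPKM at day 0, 41.2, 42.98 and 43.7 at day 3, and 67.2, 52.8 and 71.9 at day 21. It fell by the most of this group, with -1.32 ± 0.13 (edgeR adjusted p 3.81e-05) at day 3 and -0.80 ± 0.13 (edgeR adjusted p 0.00169) at day 21. Napb, the SNAP protein that recruits Nsf in brain, changed by -1.17 ± 0.13 (edgeR adjusted p 8.33e-05) at day 3 and by -0.45 ± 0.13 (edgeR adjusted p 0.026) at day 21.

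Stx1a, the plasma membrane syntaxin, was at 4.91, 3.89 and 4.47 FPKM at day 0, 4.45, 4.44 and 4.28 at day 3, and 4.07, 4.91 and 3.72 at day 21. Its groups overlapped at every comparison, and its change was -0.06 ± 0.13 (edgeR adjusted p 0.726) at day 3 and -0.19 ± 0.13 (edgeR adjusted p 0.307) at day 21, where without day 21 replicate 2 it was called lower, with -0.29 ± 0.11 (edgeR adjusted p 0.0446). The day 21 call of Napb was lost when day 0 replicate 1, 2 or 3 or day 21 replicate 1 was left out (edgeR adjusted p 0.0516 to 0.0734) and in 3 of the other settings (adjusted p 0.0683 to 0.0949). That of Snap25 was lost in 2 of the other settings (adjusted p 0.0501 to 0.0616).

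Both vesicle SNAREs fell relative to all genes, Vamp2 with the opposite sign when libraries were scaled on neuron markers (0.68 at day 3), and whether the changes of the pair differed was not tested. Vamp1, the form that predominates in spinal cord, was at 124, 131 and 130.2 FPKM at day 0, 58.8, 59.5 and 58.3 at day 3, and 84.7, 86.5 and 79.4 at day 21. Vamp2, the main form in forebrain, was at 76.1, 81.5 and 84.6 FPKM at day 0, 65.5, 66.6 and 63.1 at day 3, and 73.4, 74.6 and 64.7 at day 21. In both genes all day 3 values lay below all day 0 values. The changes were -1.18 ± 0.08 (edgeR adjusted p 5.02e-06) for Vamp1 and -0.37 ± 0.10 (edgeR adjusted p 0.0142) for Vamp2 at day 3, and -0.75 ± 0.08 (edgeR adjusted p 0.000218) and -0.31 ± 0.10 (edgeR adjusted p 0.0396) at day 21. The day 3 call of Vamp2 was lost when day 0 replicate 2 or 3 or day 3 replicate 1 or 3 was left out (edgeR adjusted p 0.0504 to 0.0622), and its day 21 call when any library other than day 0 replicate 1 and day 21 replicate 2 was left out (edgeR adjusted p 0.0561 to 0.139) and in 6 of the other settings (adjusted p 0.0758 to 0.169).

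Synaptotagmins sense calcium and complexins clamp and prime the SNARE complex. Of these 8 genes 7 fell and 1 rose at day 3, and 4 fell at day 21. Among all tested genes 19.5% fell and 24.8% rose at day 3, and 11.3% fell at day 21. Cplx1, the most abundant of all 52 (chr5:108518554-108550024), was at 743, 875 and 887 FPKM at day 0, 466, 445 and 461 at day 3, and 594, 595 and 507 at day 21. Day 3 and day 21 values all lay below day 0, with changes of -0.92 ± 0.11 (edgeR adjusted p 0.000159) at day 3 and -0.69 ± 0.11 (edgeR adjusted p 0.00195) at day 21. Cplx2 fell by 0.86 on the log2 scale at day 3 (edgeR adjusted p 0.00012) and reached -0.30 ± 0.10 (edgeR adjusted p 0.04999) at day 21, a call lost when any library other than day 21 replicate 2 was left out (edgeR adjusted p 0.0727 to 0.158) and in 8 of the other settings (adjusted p 0.0511 to 0.219).

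Syt2, the fast calcium sensor of hindbrain and cord terminals, was at 100.01, 92.2 and 35.7 FPKM at day 0, 9.15, 8.01 and 30.7 at day 3, and 55.2, 43.9 and 54.6 at day 21. The third library of day 0 was far below its mates and the third of day 3 far above its own, so the groups nearly met at 30.7 and 35.7. The change was the largest fall of the 52 at day 3, -2.30 ± 0.55 (edgeR adjusted p 0.00826), and at day 21 it was -0.68 ± 0.53 (edgeR adjusted p 0.374). Syt1, the related sensor of forebrain terminals, changed by -1.03 ± 0.18 (edgeR adjusted p 0.0014) at day 3 and -0.52 ± 0.18 (edgeR adjusted p 0.0531) at day 21, where it was called lower when day 21 replicate 2 or 3 was left out (edgeR adjusted p 0.00206 to 0.0347) and in 4 of the other settings (adjusted p 0.000835 to 0.0305). Without day 21 replicate 2 that change was -0.33 ± 0.06 (edgeR adjusted p 0.00206).

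Syt4, a synaptotagmin found on dense-core vesicles, was the 1 gene of this group that rose. It was at 32.96, 29.7 and 29.5 FPKM at day 0, 39.7, 43.3 and 41.003 at day 3, and 30.6, 26.2 and 32.02 at day 21. All day 3 values lay above those of both other days, with 0.38 ± 0.11 (edgeR adjusted p 0.0216) at day 3 and -0.55 ± 0.11 (edgeR adjusted p 0.00648) at day 21 against day 3. The day 3 call was lost when day 0 replicate 2 or 3 or day 3 replicate 2 or 3 was left out (edgeR adjusted p 0.0635 to 0.0849) and in 1 of the other settings (adjusted p 0.0898). Syt7, a slow sensor for asynchronous release, changed by -1.31 ± 0.12 (edgeR adjusted p 2.58e-05) at day 3 and -0.59 ± 0.12 (edgeR adjusted p 0.00584) at day 21. Syt11, which restrains endocytosis, changed by -0.82 ± 0.10 (edgeR adjusted p 0.000131) at day 3 and -0.46 ± 0.10 (edgeR adjusted p 0.00728) at day 21. The day 21 call of Syt11 was lost in 1 of the other settings (adjusted p 0.0881). Syt5 changed by -0.57 ± 0.18 (edgeR adjusted p 0.0274) at day 3, a call lost when day 0 replicate 2 or 3 or day 3 replicate 2 or 3 was left out (edgeR adjusted p 0.0691 to 0.101), and by -0.18 ± 0.18 (edgeR adjusted p 0.482) at day 21, where it was called lower when day 21 replicate 2 was left out (edgeR adjusted p 0.0109) and in 1 of the other settings (adjusted p 0.00689), with -0.41 ± 0.11 in the first case.

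**Figure D2:**
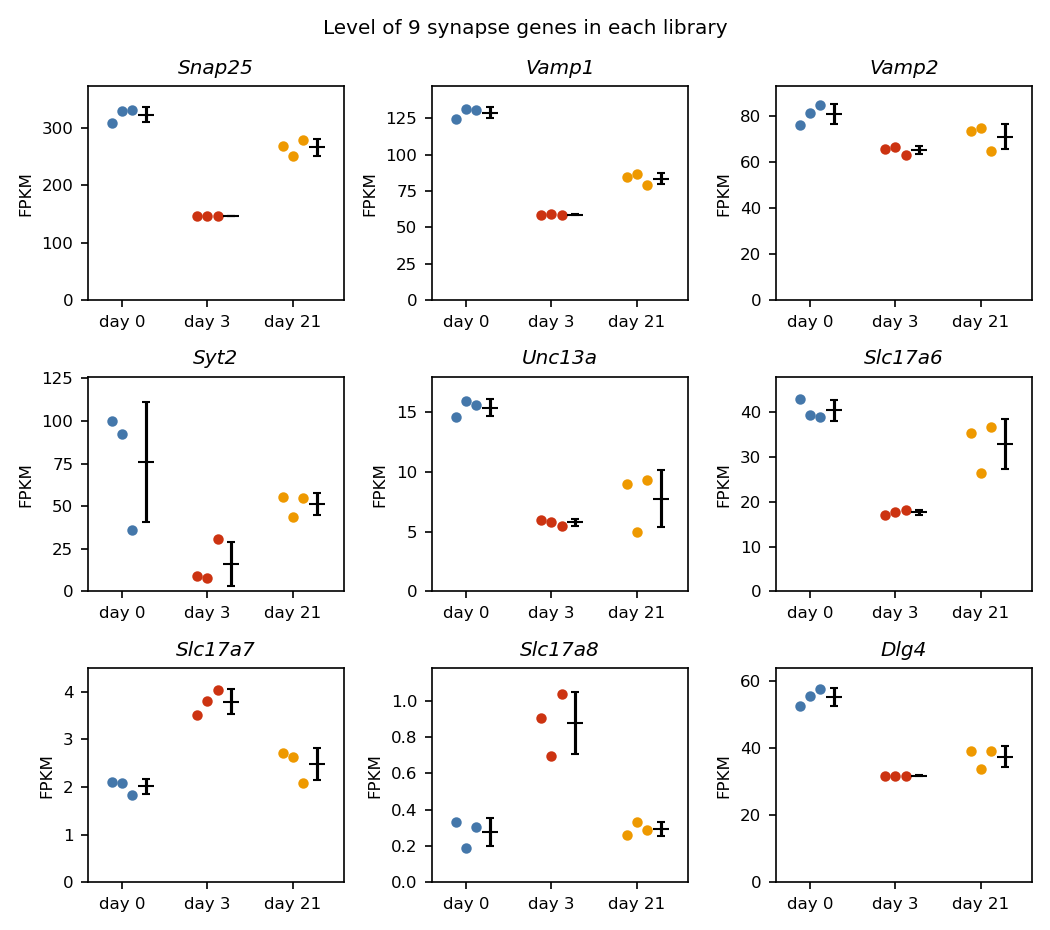
FPKM (y axis, from 0) of 9 of the genes in each library at day 0 (blue), day 3 (red) and day 21 (orange), with the mean and SD of 3 libraries in black. Snap25, Vamp1, Unc13a, Slc17a6 and Dlg4 had their lowest mean at day 3, Slc17a7 and Slc17a8 had their highest mean there, and Syt2 spread widely within day 0 and day 3.

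All 8 genes of the vesicle membrane and the synapsins fell at day 3, with a median of -1.06, and 7 of them at day 21, with a median of -0.73. The shares of all tested genes that fell were 19.5% at day 3 and 11.3% at day 21. Syp, the abundant vesicle protein synaptophysin, was at 187, 166 and 167 FPKM at day 0, 96.9, 97.2 and 96.1 at day 3, and 119.8, 172 and 105 at day 21. The day 3 values lay close together and below both other days, with -0.89 ± 0.16 (edgeR adjusted p 0.00142). At day 21 replicate 2 lay within the range of day 0 and the others below it, and the change was -0.52 ± 0.15 (edgeR adjusted p 0.0339), a call lost when any library other than day 21 replicate 2 was left out (edgeR adjusted p 0.0567 to 0.126) and in 6 of the other settings (adjusted p 0.056 to 0.114).

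Synapsins tether vesicles to one another. Syn1, whose promoter holds both motifs above, was at 103, 147 and 145 FPKM at day 0, 75.9, 72.6 and 75.6 at day 3, and 96.9, 91.2 and 92.5 at day 21. Day 0 replicate 1 was the lowest of its group, yet all later values lay below it, with -0.87 ± 0.15 (edgeR adjusted p 0.00133) at day 3 and -0.62 ± 0.15 (edgeR adjusted p 0.0138) at day 21. The day 21 call was lost when day 0 replicate 2 or 3 was left out (edgeR adjusted p 0.0563 to 0.0572) and in 1 of the other settings (adjusted p 0.0588). Syn2 changed by -1.11 ± 0.09 (edgeR adjusted p 1.56e-05) at day 3 and -0.63 ± 0.09 (edgeR adjusted p 0.00118) at day 21. Syn3, the least abundant synapsin, was at 1.92, 2.44 and 2.39 FPKM at day 0, 0.573, 0.577 and 0.653 at day 3, and 1.46, 0.366 and 1.68 at day 21. It had the largest fall of this group at day 3, -1.96 ± 0.46 (edgeR adjusted p 0.00712), and at day 21 -1.06 ± 0.44 (edgeR adjusted p 0.104), with a call gained when day 21 replicate 2 was left out (edgeR adjusted p 0.00465) and in 2 of the other settings (adjusted p 0.00193 to 0.0374). The day 21 change without replicate 2 was -0.63 ± 0.14. Syn3 shares 14.1% of its exon bases with Timp3, an inhibitor of matrix proteases on the other strand, whose counts were 6056, 6942 and 5508 in the day 3 libraries and 3648, 2740 and 2996 in those of day 0. Whether counting used strand is not given here, so reads of the shared bases cannot be told apart.

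The proteins of the SV2 family are vesicle glycoproteins that regulate release. Sv2a changed by -0.92 ± 0.10 (edgeR adjusted p 8.78e-05) at day 3 and -0.72 ± 0.10 (edgeR adjusted p 0.00094) at day 21. Sv2b changed by -1.47 ± 0.21 (edgeR adjusted p 0.000427) and -0.89 ± 0.21 (edgeR adjusted p 0.0113) at the same days, and day 0 replicate 1 was its highest library, with 13.6 FPKM against 7.49 and 9.15. Sv2c changed by -1.24 ± 0.24 (edgeR adjusted p 0.00278) and -0.99 ± 0.24 (edgeR adjusted p 0.015), with 15.7 FPKM in day 21 replicate 2 and 31.2 and 32.4 FPKM in its mates, and in the fit of 2 groups only its day 21 adjusted p was 0.0551. Syngr1, a synaptogyrin, changed by -1.01 ± 0.09 (edgeR adjusted p 1.96e-05) at day 3 and -0.73 ± 0.09 (edgeR adjusted p 0.000378) at day 21.

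Rab3 marks vesicles for docking and rabphilin, encoded by Rph3a, binds it. All 3 genes of this group fell at day 3 and were higher at day 21 than at day 3. Among all tested genes 19.5% fell at day 3, and 11.7% were higher at day 21 than at day 3. Rph3a was at 211, 237 and 245 FPKM at day 0, 96.2, 95.5 and 100.3 at day 3, and 151, 129 and 139.6 at day 21. The groups did not overlap, with -1.30 ± 0.11 (edgeR adjusted p 1.59e-05) at day 3 and -0.85 ± 0.11 (edgeR adjusted p 0.000541) at day 21, and 0.45 ± 0.11 (edgeR adjusted p 0.0142) between day 21 and day 3. That last call was lost when day 3 replicate 1 or 2 or day 21 replicate 1 was left out (edgeR adjusted p 0.0515 to 0.0616).

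Rab3a was at 114, 116 and 129.6 FPKM at day 0, 65.8, 67.2 and 68.4 at day 3, and 86.7, 123 and 88.9 at day 21. Its change at day 3 was -0.89 ± 0.13 (edgeR adjusted p 0.000602), while at day 21 the second library lay within the range of day 0 and the change was -0.40 ± 0.13 (edgeR adjusted p 0.0504). Without day 21 replicate 2 it was called, with -0.56 ± 0.07 (edgeR adjusted p 0.000227), and under 5 of the other settings as well (adjusted p 5.43e-05 to 0.0468). Its change at day 21 against day 3 was 0.49 ± 0.13 (edgeR adjusted p 0.0245), a call lost when day 3 replicate 1, 2 or 3 was left out (edgeR adjusted p 0.0745 to 0.088) and in 1 of the other settings (adjusted p 0.0543). Rab3c was at 22.1, 22.1 and 22.8 FPKM at day 0, 10.1, 9.65 and 9.75 at day 3, and 25.5, 16.2 and 28.2 at day 21. Its day 3 values lay below all others, with -1.24 ± 0.19 (edgeR adjusted p 0.000742), and replicates 1 and 3 of day 21 exceeded every day 0 library. The day 21 change was -0.06 ± 0.19 (edgeR adjusted p 0.842) against day 0, turning to 0.15 ± 0.06 (edgeR adjusted p 0.0795) without replicate 2, and 1.18 ± 0.19 (edgeR adjusted p 0.00238) against day 3.

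Active zone proteins form the scaffold at which vesicles dock and are primed. Of 7 genes 4 fell and 1 rose at day 3, and 2 fell at day 21. Among all tested genes 19.5% fell and 24.8% rose at day 3, and 11.3% fell at day 21. Unc13a, the priming factor Munc13-1 of most central synapses, was at 14.6, 15.9 and 15.6 FPKM at day 0, 6.02, 5.84 and 5.48 at day 3, and 9.03, 4.996 and 9.297 at day 21. Its day 0 values all lay above the rest, with -1.47 ± 0.22 (edgeR adjusted p 0.000626) at day 3 and -1.10 ± 0.22 (edgeR adjusted p 0.00564) at day 21. Unc13b, which encodes Munc13-2 and is also made outside neurons, was at 0.666, 0.601 and 0.521 FPKM at day 0, 1.21, 1.25 and 1.19 at day 3, and 0.835, 0.417 and 1.26 at day 21. The day 3 values were above those of day 0 without overlap, and day 21 spread over both. Its change was 0.98 ± 0.32 (edgeR adjusted p 0.0362) at day 3, a call lost when any library other than day 21 replicate 2 and day 21 replicate 3 was left out (edgeR adjusted p 0.0515 to 0.111) and in 1 of the other settings (adjusted p 0.0526). At day 21 it was 0.37 ± 0.33 (edgeR adjusted p 0.437), where it was called higher when day 21 replicate 2 was left out (edgeR adjusted p 0.00582) and in 1 of the other settings (adjusted p 0.013), with 0.70 ± 0.16 in the first case.

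The large scaffolds Bassoon and Piccolo gave wide spreads at day 21. Bsn was at 10.1, 12.8 and 12.1 FPKM at day 0, 5.06, 5.22 and 5.0 at day 3, and 6.89, 2.54 and 6.801 at day 21. It fell, with -1.25 ± 0.33 (edgeR adjusted p 0.0133) at day 3 and -1.23 ± 0.33 (edgeR adjusted p 0.0226) at day 21, a call at day 21 that was lost when day 0 replicate 2 or 3 was left out (edgeR adjusted p 0.0656 to 0.0702) and in 1 of the other settings (adjusted p 0.0701), and without day 21 replicate 2 that change was -0.88 ± 0.11 (edgeR adjusted p 0.000138). Pclo was at 2.83, 3.43 and 3.597 FPKM at day 0, 1.34, 1.17 and 1.26 at day 3, and 3.501, 0.529 and 3.76 at day 21. Its day 3 values lay below all day 0 values, while at day 21 replicate 2 lay far below replicates 1 and 3. With that library in the fit the day 3 change was -1.44 ± 0.56 (edgeR adjusted p 0.0649), and it was called without day 21 replicate 2 (edgeR adjusted p 1.47e-06) and under 4 of the other settings (adjusted p 1.34e-05 to 0.0246). The day 21 change of Pclo was -0.45 ± 0.55 (edgeR adjusted p 0.586) with that library and 0.03 ± 0.12 (edgeR adjusted p 0.844) without it.

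The RIM proteins tether calcium channels near vesicles. In day 21 replicate 2 Rims1 held 2.52 FPKM and Rims2 2.69 FPKM, while replicates 1 and 3 held 6.76 and 5.49 FPKM of Rims1 and 6.70 and 6.77 FPKM of Rims2. Rims1 changed by -1.37 ± 0.31 (edgeR adjusted p 0.00603) at day 3 and -0.58 ± 0.30 (edgeR adjusted p 0.187) at day 21, and Rims2 by -1.07 ± 0.31 (edgeR adjusted p 0.0199) and -0.49 ± 0.30 (edgeR adjusted p 0.265). Without that library the day 21 changes were -0.26 ± 0.12 (edgeR adjusted p 0.0932) for Rims1 and -0.16 ± 0.10 (edgeR adjusted p 0.221) for Rims2. The day 3 call of Rims2 was lost when day 0 replicate 2 or 3 or day 3 replicate 2 or 3 was left out (edgeR adjusted p 0.0523 to 0.0726). Erc2, an active zone organizer, changed by -0.56 ± 0.26 (edgeR adjusted p 0.114) at day 3. It was called without day 21 replicate 2 (edgeR adjusted p 5.2e-05) and under 2 of the other settings (adjusted p 0.00011 to 0.000172). At day 21 it changed by -0.45 ± 0.26 (edgeR adjusted p 0.23) with all libraries and -0.16 ± 0.08 (edgeR adjusted p 0.107) without replicate 2.

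The 3 endocytosis genes fell at both days, against 19.5% of all tested genes at day 3 and 11.3% at day 21. Dnm1, the GTPase that pinches off vesicles, was at 77.7, 96.7 and 89.4 FPKM at day 0, 41.8, 40.3 and 41.4 at day 3, and 57.1, 45.4 and 61.04 at day 21. Amph, which brings dynamin to curved membrane, was at 30.2, 29.6 and 29.8 FPKM at day 0, 11.9, 12.1 and 12.2 at day 3, and 18.7, 14.4 and 20.1 at day 21. Synj1, the lipid phosphatase that strips clathrin coats, was at 19.5, 20.02 and 19.4 FPKM at day 0, 7.74, 8.11 and 8.19 at day 3, and 14.2, 7.17 and 15.5 at day 21. In each gene every day 3 and day 21 value lay below every day 0 value, and replicate 2 was the lowest at day 21. The changes at day 3 were -1.15 ± 0.14 (edgeR adjusted p 0.000195) for Dnm1, -1.36 ± 0.14 (edgeR adjusted p 4.75e-05) for Amph and -1.34 ± 0.25 (edgeR adjusted p 0.0022) for Synj1. At day 21 they were -0.82 ± 0.14 (edgeR adjusted p 0.00299), -0.87 ± 0.13 (edgeR adjusted p 0.00153) and -0.79 ± 0.25 (edgeR adjusted p 0.0413) in the same order. The day 21 call of Synj1 was lost when any library other than day 21 replicate 2 and day 21 replicate 3 was left out (edgeR adjusted p 0.0507 to 0.106) and in 4 of the other settings (adjusted p 0.0512 to 0.11), and the change was -0.51 ± 0.06 (edgeR adjusted p 0.00015) without day 21 replicate 2.

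The vesicular glutamate transporters moved in opposite directions at day 3. Slc17a6, which encodes VGLUT2 of most cord glutamatergic neurons, was at 42.99, 39.3 and 38.8 FPKM at day 0, 17.1, 17.7 and 18.1 at day 3, and 35.4, 26.5 and 36.7 at day 21. Its day 3 values lay below every other library, with -1.24 ± 0.14 (edgeR adjusted p 9.59e-05) at day 3, -0.42 ± 0.14 (edgeR adjusted p 0.0484) at day 21 and 0.83 ± 0.14 (edgeR adjusted p 0.00262) at day 21 against day 3. The day 21 call against day 0 was lost when any library other than day 21 replicate 2 and day 21 replicate 3 was left out (edgeR adjusted p 0.057 to 0.11) and in 7 of the other settings (adjusted p 0.0543 to 0.139), and without day 21 replicate 2 it was called at a smaller change of -0.27 ± 0.06 (edgeR adjusted p 0.00422).

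Slc17a7 (chr7:45163921-45176138) encodes VGLUT1, found in terminals of large sensory and corticospinal axons. It was at 2.11, 2.09 and 1.83 FPKM at day 0, 3.51, 3.81 and 4.04 at day 3, and 2.72, 2.62 and 2.09 at day 21. Slc17a8 (chr10:89574020-89621253) encodes VGLUT3, made by some touch-sensing neurons of the dorsal root ganglia and by few neurons of the cord. It was at 0.334, 0.189 and 0.307 FPKM at day 0, 0.903, 0.696 and 1.04 at day 3, and 0.2602, 0.333 and 0.287 at day 21. In both genes the day 3 values lay above all other libraries, and day 21 overlapped day 0. Slc17a7 changed by 0.86 ± 0.14 (edgeR adjusted p 0.00106) at day 3, and by -0.68 ± 0.14 (edgeR adjusted p 0.00764) at day 21 against day 3. Slc17a8 changed by 1.60 ± 0.25 (edgeR adjusted p 0.000669) at day 3 and -1.65 ± 0.25 (edgeR adjusted p 0.00154) at day 21 against day 3. These 4 calls held when each library was left out in turn.

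Several lists of cell markers rose at day 3, and the first given is that of peripheral sensory neurons. Of 12 such markers 10 were higher at day 3 than at day 0 and 0 lower. Their summed level was 126 to 130.0 FPKM at day 3 against 58.1 to 68.9 FPKM at day 0, and Mrgprd, a receptor of itch and pain neurons, had no count at day 0. At day 21 the summed level was 61.7, 103 and 62.5 FPKM, highest in replicate 2, with 7 of 12 called higher than at day 0, 0 lower and a median log2 fold change of 2.54. Those of the 52 genes that rose at day 3 had no call at day 21 against day 0 with all libraries. Their changes there were -0.05 for Slc17a8, 0.18 for Slc17a7, -0.17 for Syt4 and 0.37 for Unc13b. Markers of monocytes and macrophages had a summed level of 641 to 650.4 FPKM at day 3 against 24.0 to 26.7 FPKM at day 0, with 8 of 8 higher and none at 0. Schwann cell markers stood at 711 to 729 FPKM at day 3 and 345 to 418 FPKM at day 21 against 213 to 261 FPKM at day 0, with 7 of 8 higher at either day. Skeletal muscle markers summed to 121, 195 and 112 FPKM at day 21, again highest in replicate 2, against 14.8 to 18.98 FPKM at day 0, and 8 of 8 were higher. Oligodendrocyte markers summed to 1578 to 1603 FPKM at day 3 against 1844 to 1957 FPKM at day 0, with 5 of 8 lower. Astrocyte markers summed to 2420.5 to 2480.3 FPKM at day 3 against 918 to 929 FPKM at day 0, with 5 of 8 higher and 2 lower. Of 7 motor neuron markers 5 were lower and 1 higher at day 3 than at day 0, and 3 were lower at day 21. The part of any of these in the changes of the 52 genes was not tested.

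**Figure D3:**
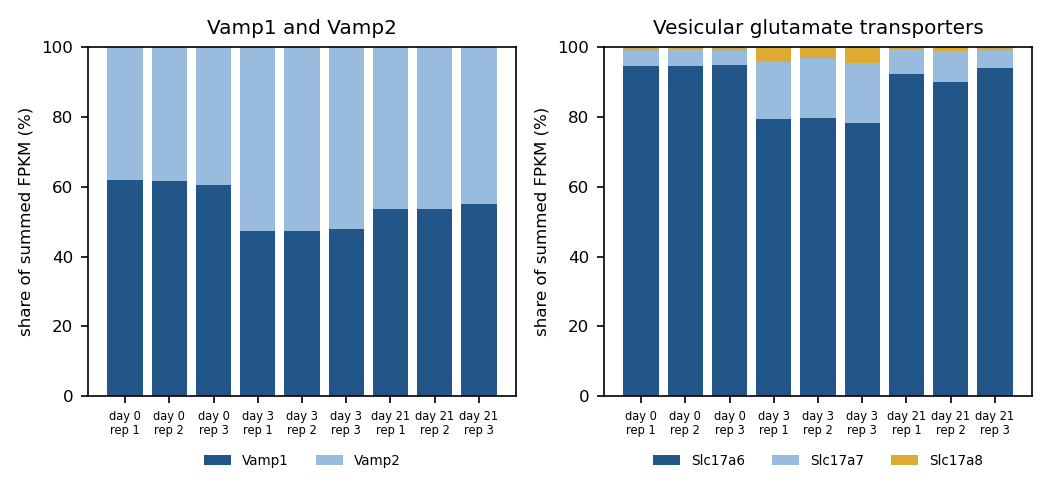
Share in percent of summed FPKM (y axis) held by Vamp1 and Vamp2 (left) and by the 3 vesicular glutamate transporters (right) in each library (x axis). At day 3 Vamp2 passed Vamp1, and Slc17a7 held 16.3 to 17.4% of the transporter sum.

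On the per-length scale these changes altered the balance within gene families. Vamp1 held 61.5 ± 0.730% of the summed FPKM of Vamp1 and Vamp2 at day 0, 47.5 ± 0.440% at day 3 and 54.1 ± 0.864% at day 21 (mean ± SD, n = 3), and the 3 groups did not overlap. Slc17a6 held 94.6 ± 0.127% of the transporter sum at day 0, 79.1 ± 0.844% at day 3 and 92.0 ± 1.98% at day 21. Slc17a7 held 4.72 ± 0.281%, 17.0 ± 0.585% and 7.11 ± 1.77% at the same days, and Slc17a8 0.646 ± 0.166%, 3.93 ± 0.702% and 0.847 ± 0.247%. The share of Cplx1 in the sum of both complexins stayed between 89.9 and 93.0% in all 9 libraries. The share of Syt2 in the sum of Syt1 and Syt2 was 82.6 ± 8.96%, 64.3 ± 15.1% and 83.6 ± 1.87%, with replicate 3 of day 0 and replicate 3 of day 3 apart from their mates.

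Neurexins are presynaptic adhesion proteins that bind neuroligins. Nrxn2 was at 12.8, 13.4 and 13.97 FPKM at day 0, 9.95, 8.79 and 9.39 at day 3, and 11.5, 6.201 and 9.42 at day 21. Nrxn3 was at 6.32, 8.18 and 7.65 FPKM at day 0, 2.397, 3.27 and 3.1002 at day 3, and 6.52, 3.53 and 6.83 at day 21. In both genes day 3 lay below day 0, and in both day 21 replicate 2 was lower than its mates. The day 3 changes were -0.57 ± 0.21 (edgeR adjusted p 0.0496) for Nrxn2 and -1.39 ± 0.26 (edgeR adjusted p 0.00211) for Nrxn3. At day 21 they were -0.69 ± 0.21 (edgeR adjusted p 0.0342) for Nrxn2 and -0.51 ± 0.26 (edgeR adjusted p 0.166) for Nrxn3, which became -0.26 ± 0.16 (edgeR adjusted p 0.204) for Nrxn3 without day 21 replicate 2. The day 3 call of Nrxn2 was lost when any library other than day 21 replicate 1 and day 21 replicate 2 was left out (edgeR adjusted p 0.0605 to 0.14) and in 3 of the other settings (adjusted p 0.0543 to 0.0639), and its day 21 call when any library other than day 21 replicate 1 and day 21 replicate 2 was left out (edgeR adjusted p 0.0537 to 0.101) and in 1 of the other settings (adjusted p 0.0967).

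Of the 6 postsynaptic scaffold genes 4 fell at day 3 and 2 at day 21, against 19.5% and 11.3% of all tested genes. Dlg4, which encodes PSD-95, the main scaffold of excitatory synapses (chr11:70017085-70045532), was at 52.5, 55.5 and 57.7 FPKM at day 0, 31.8, 31.9 and 31.6 at day 3, and 39.3, 33.9 and 39.2 at day 21. Every later library lay below every day 0 library, with -0.85 ± 0.11 (edgeR adjusted p 0.000175) at day 3 and -0.69 ± 0.11 (edgeR adjusted p 0.00148) at day 21. Dlg2, the related PSD-93, was at 8.46, 8.34 and 7.88 FPKM at day 0, 2.84, 2.78 and 2.51 at day 3, and 6.62, 1.01 and 7.06 at day 21. Its day 3 libraries lay near one another, and at day 21 replicate 2 lay far below the other libraries. The change was -1.65 ± 0.56 (edgeR adjusted p 0.0373) at day 3, a call lost when day 0 replicate 1, 2 or 3 or day 3 replicate 1, 2 or 3 was left out (edgeR adjusted p 0.076 to 0.105) and in 2 of the other settings (adjusted p 0.0539 to 0.0641). At day 21 it was -0.86 ± 0.54 (edgeR adjusted p 0.274) with all libraries, and without replicate 2 it was called at a smaller change of -0.38 ± 0.07 (edgeR adjusted p 0.00239).

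The Shank proteins link PSD-95 complexes to actin, and Homer1 joins them to metabotropic receptors. Shank1 was at 11.2, 13.6 and 13.3 FPKM at day 0, 7.401, 7.404 and 4.89 at day 3, and 10.2, 4.19 and 7.62 at day 21. It changed by -1.004 ± 0.31 (edgeR adjusted p 0.0254) at day 3 and -0.91 ± 0.31 (edgeR adjusted p 0.053) at day 21. Day 3 lay below day 0 in every library, while at day 21 the libraries spread more widely. The day 3 call was lost when day 0 replicate 2 or 3 or day 3 replicate 1 or 3 was left out (edgeR adjusted p 0.05001 to 0.0922), and at day 21 a call was gained when day 21 replicate 1 was left out (edgeR adjusted p 0.0206) and in 4 of the other settings (adjusted p 0.0146 to 0.036). Shank2 changed by -1.01 ± 0.26 (edgeR adjusted p 0.0108) and -0.83 ± 0.25 (edgeR adjusted p 0.0364), the day 21 call lost when any library other than day 21 replicate 1 and day 21 replicate 2 was left out (edgeR adjusted p 0.0572 to 0.107) and in 1 of the other settings (adjusted p 0.0996).

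Shank3 changed by -0.16 ± 0.23 (edgeR adjusted p 0.606) at day 3 and -0.60 ± 0.23 (edgeR adjusted p 0.0787) at day 21, where a call was gained when day 21 replicate 1 or 2 was left out (edgeR adjusted p 0.0146 to 0.0355) and in 4 of the other settings (adjusted p 0.00487 to 0.0482), with a smaller change of -0.36 ± 0.10 (edgeR adjusted p 0.0146) without replicate 2. Homer1 was at 0.511, 0.5702 and 0.436 FPKM at day 0, 0.495, 0.609 and 0.489 at day 3, and 0.818, 0.303 and 0.621 at day 21. Its groups overlapped at every comparison, with 0.02 ± 0.31 (edgeR adjusted p 0.967) at day 3 and 0.09 ± 0.31 (edgeR adjusted p 0.869) at day 21. At day 21 replicates 1 and 3 lay above every day 0 library and replicate 2 below them all. Without replicate 2 the day 21 change was 0.40 ± 0.17 (edgeR adjusted p 0.0757).

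Of 4 postsynaptic adhesion genes 1 was called lower at day 3 (25%) and 2 at day 21 (50%). Of all tested genes 19.5% were lower at day 3, near the share of this group, and 11.3% at day 21. Lrrtm1, a leucine-rich partner of neurexins, was at 1.003 ± 0.0866 FPKM at day 3 against 2.35 ± 0.0573 FPKM at day 0 (mean ± SD, n = 3 each). It changed by -1.28 ± 0.13 (edgeR adjusted p 4.02e-05) at day 3, -0.50 ± 0.12 (edgeR adjusted p 0.0151) at day 21 and 0.78 ± 0.13 (edgeR adjusted p 0.00212) at day 21 against day 3. Its day 21 call was lost when day 0 replicate 3 was left out (edgeR adjusted p 0.0576) and in 2 of the other settings (adjusted p 0.0566 to 0.0672). Lrrc4b, which binds presynaptic phosphatases and is known as NGL-3, was at 65.5, 73.5 and 23.2 FPKM at day 0, 40.7, 12.2 and 8.38 at day 3, and 16.9, 13.1 and 13.8 at day 21. One library of day 0 was far below its mates and one of day 3 far above, so that day 0 and day 3 overlapped. The change was -1.45 ± 0.59 (edgeR adjusted p 0.0749) at day 3, where a call was gained when day 0 replicate 3 or day 3 replicate 1 was left out (edgeR adjusted p 0.00483 to 0.0394) and in 3 of the other settings (adjusted p 0.021 to 0.048). At day 21 it was -2.003 ± 0.60 (edgeR adjusted p 0.0346), a call lost when day 0 replicate 1 or 2 or day 21 replicate 1, 2 or 3 was left out (edgeR adjusted p 0.0715 to 0.131) and in 3 of the other settings (adjusted p 0.0592 to 0.0959).

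Neuroligins are the classical postsynaptic partners of neurexins. Nlgn1, of excitatory synapses, was at 1.05, 0.919 and 1.74 FPKM at day 0, 0.3001, 0.545 and 0.482 at day 3, and 1.17, 0.219 and 1.25 at day 21. Day 3 lay below day 0, with -1.53 ± 0.57 (edgeR adjusted p 0.0529), and it was called without day 21 replicate 2 (edgeR adjusted p 0.00341) and under 5 of the other settings (adjusted p 0.000921 to 0.0449). At day 21 the change of Nlgn1 was -0.60 ± 0.55 (edgeR adjusted p 0.453) with all libraries and -0.14 ± 0.32 (edgeR adjusted p 0.75) without replicate 2. Nlgn3, of both excitatory and inhibitory synapses (chrX:101299168-101325963), was at 3.99, 7.94 and 3.36 FPKM at day 0, 4.85, 4.82 and 4.902 at day 3, and 6.49, 4.35 and 5.92 at day 21. Day 0 replicate 2 was high and its mates lower, and the change was -0.12 ± 0.31 (edgeR adjusted p 0.769) at day 3 and 0.01 ± 0.31 (edgeR adjusted p 0.989) at day 21. Without day 21 replicate 2 the day 21 change of Nlgn3 was 0.17 ± 0.36 (edgeR adjusted p 0.729).

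The gene model Gm21986 overlaps 41.2% of the exon bases of Nlgn3 and took 910, 19 and 827 counts in the day 0 libraries, while Nlgn3 took 1050, 1373 and 650. At day 3 Gm21986 took 25, 57 and 21 counts, and at day 21 it took 22, 25 and 34. Summed, both held 81.6, 88.3 and 83.8 CPM (counts scaled to the library total) at day 0, 54.8, 56.1 and 55.2 at day 3, and 72.5, 49.4 and 67.3 at day 21. The sum was thus even within day 0 where each gene was not. The sum changed by -0.67 ± 0.15 (edgeR adjusted p 0.00662) at day 3 and by -0.54 ± 0.15 (edgeR adjusted p 0.0261) at day 21, a comparison added after the values were seen. Whether reads were split between the overlapping genes was not tested further, and the values of Nlgn3 alone are uncertain.

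Camk2a and Camk2b encode the calcium-dependent kinase that is abundant beneath the postsynaptic membrane. Camk2a was at 13.8, 17.7 and 17.5 FPKM at day 0, 9.27, 9.31 and 9.46 at day 3, and 13.9, 9.18 and 11.9 at day 21. Camk2b was at 15.5, 25.2 and 26.02 FPKM at day 0, 11.5, 12.5 and 11.9 at day 3, and 18.1, 9.51 and 14.6 at day 21. Day 3 lay below day 0 without overlap in both genes, and day 0 replicate 1 was the lowest of its group. The day 3 changes were -0.86 ± 0.18 (edgeR adjusted p 0.00375) for Camk2a and -0.95 ± 0.27 (edgeR adjusted p 0.018) for Camk2b. At day 21 they were -0.61 ± 0.18 (edgeR adjusted p 0.0302) and -0.79 ± 0.27 (edgeR adjusted p 0.0551). The day 3 call of Camk2b was lost when day 0 replicate 2 or 3 or day 3 replicate 1 or 3 was left out (edgeR adjusted p 0.0555 to 0.0662), and the day 21 call of Camk2a was lost when day 0 replicate 2 or 3, day 3 replicate 1, 2 or 3 or day 21 replicate 3 was left out (edgeR adjusted p 0.0507 to 0.102) and in 3 of the other settings (adjusted p 0.0501 to 0.0952).

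**Figure D4:**
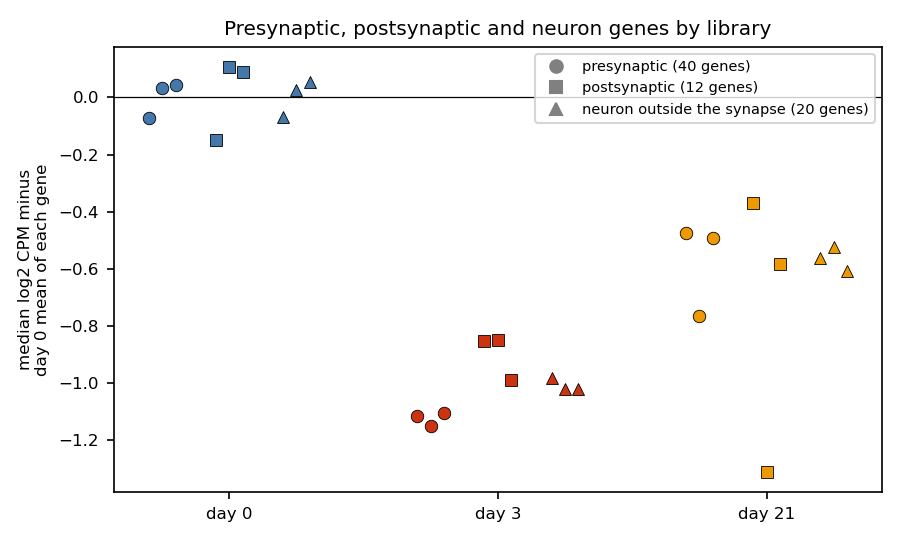
Median over genes of log2 CPM minus the gene's day 0 mean (y axis) in each library for presynaptic genes (circles), postsynaptic genes (squares) and neuron genes outside the synapse (triangles). Day 3 medians sat between -1.15 and -0.85, and the postsynaptic genes of day 21 replicate 2 sat at -1.31.

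Genes on both sides of the synapse fell, and whether the sides differed was not tested. At day 3, 33 of 40 presynaptic genes fell and 4 rose, with a median of -1.13, and 7 of 12 postsynaptic genes fell and 0 rose, with a median of -0.98. Behind that 0 stand 0 postsynaptic genes higher at an unadjusted p under 0.05 in edgeR and 0 in DESeq2. At day 21 against day 0, 24 presynaptic and 5 postsynaptic genes fell, with medians of -0.55 and -0.65. Without day 21 replicate 2, 29 presynaptic and 6 postsynaptic genes fell, with medians of -0.53 and -0.49, so the order of the medians turned. Lower calls over all genes were 3748 of 16739 there, against 1864 of 16494 with all libraries. Of all genes 19.5% were lower and 24.8% higher at day 3, and 11.3% and 17.9% at day 21. In the day 21 comparison with day 3, 15 presynaptic genes were higher and 3 lower (median 0.44), and 1 postsynaptic gene, Lrrtm1, was higher (median 0.17), against 11.7% of all genes higher. Without day 21 replicate 2 these became 26 presynaptic and 6 postsynaptic genes higher, with medians of 0.50 and 0.39, and Dlg2, Dlg4, Shank2, Nlgn1 and Camk2a joined Lrrtm1. In that fit 3941 of all 16739 genes were higher, against 1928 of 16494 with all libraries. Voom with sample weights called 7 postsynaptic genes and 4441 of all 16494 genes higher, and without day 21 replicate 1 the postsynaptic median was -0.034. The summed FPKM of presynaptic genes was 3070 ± 93.1 at day 0, 1591 ± 19.7 at day 3 and 2198 ± 56.4 at day 21. That of postsynaptic genes was 188 ± 26.1, 97.7 ± 18.3 and 106 ± 21.6 at the same days (mean ± SD, n = 3). Of these postsynaptic sums 54.1 ± 27.0, 20.4 ± 17.7 and 14.6 ± 2.04 FPKM came from Lrrc4b, whose day 0 and day 3 libraries spread widely.

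Within each library the presynaptic median minus the postsynaptic median, both taken as log2 CPM from the day 0 mean, was 0.08, -0.07 and -0.05 at day 0, -0.26, -0.30 and -0.11 at day 3, and -0.10, 0.55 and 0.09 at day 21. The day 3 values lay below those of day 0, and day 21 was spread by its second library. These differences over chosen genes carry no test.

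Gene length, here the length implied by the deposited count and FPKM, moved with the second library of day 21. It departs from annotated exon bases in some genes. Rims2 (5441 against 10389 exon bases) and Erc2 (6083 against 9728) counted as shorter, yet lay at -1.32 and -1.12 in that library. Dnm1 (13447 against 5249) counted as longer and lay at -0.38. The 26 of the 52 genes longer than their median of 9494 bases lay at a median of -0.90 log2 units from the mean of replicates 1 and 3, and 24 of them were lower. The 26 shorter genes lay at a median of -0.03, and 14 were lower. Spearman's rho between length and this difference was -0.689 over the 52 genes, which share 1 library and so are not replicates. The median length was 12814 bases for the postsynaptic and 7674 bases for the presynaptic genes. In Pclo, Dlg2 and Nlgn1 the second library held 0.529, 1.01 and 0.219 FPKM, and replicates 1 and 3 held 3.50 and 3.76, 6.62 and 7.06, and 1.17 and 1.25 FPKM. Leaving out that library moved the day 21 change against day 0 of 20 of the 52 genes by over 1.5 times, 13 of them to a smaller size, and turned the sign of 2 genes, Rab3c and Pclo. The part of gene length in the difference between presynaptic and postsynaptic genes at day 21 was not tested.

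**Figure D5:**
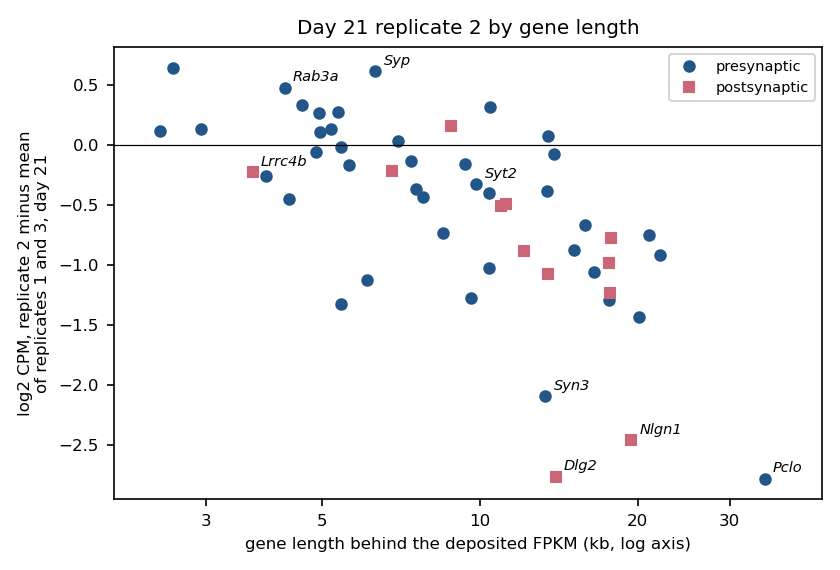
Difference in log2 CPM between day 21 replicate 2 and the mean of replicates 1 and 3 (y axis) against gene length in kilobases (x axis, log scale) for presynaptic (blue circles) and postsynaptic (red squares) genes. Length is the one implied by the deposited FPKM. Of the longer 26 genes 24 lay below 0, and Pclo, Dlg2 and Nlgn1 lay lowest.

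A further set of synapse genes was listed apart from the 52. Of 38 tested presynaptic ones 30 fell and 1 rose at day 3, with a median of -0.97, and 19 fell and 1 rose at day 21, with a median of -0.47. Shares over all genes were 19.5% lower and 24.8% higher at day 3, and 11.3% and 17.9% at day 21. Slc32a1, the transporter that loads GABA and glycine, was at 119, 113 and 108 FPKM at day 0, 41.8, 42.9 and 40.6 at day 3, and 69.8, 63.6 and 64.8 at day 21. It was lower in every later library, with -1.49 ± 0.09 (edgeR adjusted p 2.15e-06) at day 3 and -0.90 ± 0.09 (edgeR adjusted p 0.000123) at day 21. Snap91, a clathrin adaptor, changed by -1.40 ± 0.18 (edgeR adjusted p 0.000251) at day 3 and the RIM family member Rims3 by -1.37 ± 0.35 (edgeR adjusted p 0.011). Rab3il1, an exchange factor of Rab3, rose by 1.70 ± 0.16 (edgeR adjusted p 3.99e-05) at day 3 and 0.83 ± 0.16 (edgeR adjusted p 0.0053) at day 21.

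Of 30 other postsynaptic genes 14 fell and 1 rose at day 3, with a median of -0.87. At day 21 against day 0, 8 fell and 0 rose (median -0.38), and at day 21 against day 3, 9 were higher (median 0.39). Of all genes 19.5% were lower at day 3 and 11.3% at day 21 against day 0, and 11.7% were higher at day 21 against day 3. Dlgap2, which links PSD-95 to Shank, changed by -1.68 ± 0.42 (edgeR adjusted p 0.01) at day 3, and the adhesion gene Slitrk1 by -1.64 ± 0.17 (edgeR adjusted p 4.94e-05). Lrrc4, a netrin-G ligand, changed by -1.56 ± 0.47 (edgeR adjusted p 0.023), and Cacng2, the AMPA receptor partner stargazin, by -1.36 ± 0.15 (edgeR adjusted p 0.000101). At day 21 against day 0, Slitrk1 was also lower, with -0.83 ± 0.16 (edgeR adjusted p 0.00496), and Cacng2 was at -0.36 ± 0.15 (edgeR adjusted p 0.104).

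Neuron markers that are not synaptic moved alongside the 52 genes. Of 20 such markers, among them neurofilaments, tubulin and RNA-binding proteins, 18 fell at day 3 with a median of -0.997. At day 21, 11 fell and 1 rose, with a median of -0.56. Among all tested genes 19.5% fell at day 3, and 11.3% fell and 17.9% rose at day 21. Their summed FPKM was 5331 ± 32.5 at day 0, 2721 ± 30.9 at day 3 and 3682 ± 274 at day 21, while that of the 52 genes was 3258 ± 104, 1689 ± 25.4 and 2304 ± 64.8. In the day 3 libraries the presynaptic median minus that of the neuron markers was -0.13 to -0.08 log2 units, and the postsynaptic median minus that of the neuron markers was 0.03 to 0.17. In day 21 replicates 1, 2 and 3 the presynaptic difference was 0.09, -0.24 and 0.12, and the postsynaptic one 0.19, -0.79 and 0.02. In replicate 2 the medians of the synapse genes thus lay below that of the neuron markers. Of the 26 longer synapse genes 24 were lower there than the mean of replicates 1 and 3. The 26 shorter ones lay at a median of -0.03 from that mean. Lengths of the neuron markers were not compared, so gene length and gene class cannot be told apart here.

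With libraries scaled on the neuron markers, in place of all genes, most of the 52 were not called against day 0. That scaling moved the median change of all genes to 1.04 at day 3 and 0.54 at day 21, while the median of the 52 was -0.01 at day 3 and -0.07 at day 21. At day 3, 1 gene was lower and 10 were higher, against 0.873% and 75.6% of all genes under that scaling. The lower one was Rph3a at -0.26. The higher ones were Stx1a, Vamp2, Syt4, Syt5, Unc13b, Slc17a7, Slc17a8, Shank3, Homer1 and Nlgn3, and 41 were not called. Their changes there were 0.97 for Stx1a (edgeR adjusted p 0.000126), 0.68 for Vamp2 (edgeR adjusted p 8.86e-05), 0.88 for Shank3 (edgeR adjusted p 0.00604) and 1.05 for Homer1 (edgeR adjusted p 0.0139). The call of Nlgn3 is uncertain, as Gm21986 overlaps 41.2% of its exon bases and the sum of both was not tested under that scaling. In the day 21 comparison with day 0 Vamp1 and Rph3a were lower and Slc17a7 higher, against 0.534% lower and 47.1% higher of all genes. The share of the 52 called higher was thus far under that of all genes in both comparisons.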

How the data were processed

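RNA of 9 mouse spinal cord libraries was sequenced from poly-A selected, paired-end libraries, per the labels' protocols. HISAT2 and StringTie appear, with no version, in the submitters' processing notes, as does the human build GRCh38 for these mouse samples. The deposited loci match mouse build GRCm38: 40 of the 52 members have the same locus in GENCODE M21. The authors deposited whole-number counts per gene and FPKM, which equals count over gene length and library total (largest deviation 0.00117%). Aligner settings, annotation and strand use are not given here.

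All 9 libraries entered 1 fit with edgeR 4.0.16 in R 4.3.3 (TMM scaling, default filter, robust quasi-likelihood, 6 residual degrees of freedom). Benjamini-Hochberg adjustment, two-sided, ran over 16494 genes, and the SE is the fold change over the root of F. The members, role groups and other lists were chosen with earlier results of these data known. Values in every library are given for the most abundant member of each role group and for those with the lowest and highest change, and for further members whose libraries spread or whose change bears on a neighbour. At most 4 genes are named from each other list. Median changes and family shares carry no test. Alternatives were DESeq2 1.42.0, limma 3.58.1 on log2 FPKM with pseudocounts of 1 and 0.1, voom with sample weights, median-of-ratios, upper-quartile and neuron-marker scaling, no filter and a filter of 50 counts in 3 libraries, fits without robust estimation or of 2 groups only, a block for the replicate number, and omission of each library in turn. A gene-length correction and the sum of Nlgn3 and Gm21986 were added after the values were seen.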

Additional observations from a re-analysis of the deposited data

How the results depend on the processing

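Of the 44 calls among the 52 genes at day 3 against day 0, 35 held under every alternative other than neuron-marker scaling, and 9 were lost when 1 library was left out. Of 29 calls at day 21 against day 0, 13 held under all of these alternatives and 16 with each library left out, and of 19 at day 21 against day 3, 12 held under all and 7 were lost when 1 library was left out. Leaving out day 21 replicate 2 added 3, 8 and 16 calls in those comparisons. Over all genes it moved lower calls from 3217, 1864 and 2657 to 4891, 3748 and 4305. Higher calls moved from 4090, 2949 and 1928 to 5354, 4207 and 3941. Leaving out 1 library gave 33 to 43 lower and 2 to 4 higher genes at day 3 against day 0, 17 to 35 lower and 0 to 1 higher at day 21 against day 0, and 3 to 4 lower and 9 to 32 higher at day 21 against day 3. It gave medians of -1.14 to -1.10 (presynaptic) and -1.10 to -0.88 (postsynaptic) at day 3 against day 0, and for postsynaptic genes at day 21 against day 3 it gave -0.034 to 0.39, the lowest without day 21 replicate 1. At day 21 against day 0 the medians were -0.67 to -0.51 (presynaptic) and -0.85 to -0.49 (postsynaptic). In the fit of 2 groups only 15 genes were lower at day 21 against day 0, a fit with fewer libraries. Of all genes 801 of 15962 were lower there. Voom with sample weights called 1 higher at day 21 against day 0 and 39 higher at day 21 against day 3, and with the gene-length trend removed 5 were lower at day 21 against day 3. Of all 16494 genes voom called 4367 higher at day 21 against day 0 and 4441 at day 21 against day 3. With the length trend removed 2944 of 14572 were lower at day 21 against day 3. The presynaptic median at day 3 was -1.22 with no count filter, -0.98 with limma on log2(FPKM + 1) and -1.07 with the length trend removed, and the postsynaptic one -0.74 with limma on log2(FPKM + 1), a scale that understates changes of low genes. The cause of the other shifts was not tested.

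Neuron-marker scaling moved the median of all genes to 1.04, 0.54 and -0.50 in the 3 comparisons, so signs under it are relative to neuron markers and not to all genes. It left 1 lower and 10 higher genes at day 3 against day 0, 2 lower and 1 higher at day 21 against day 0, and 10 lower and 2 higher at day 21 against day 3. Of all 16494 genes 144, 88 and 7389 were lower and 12465, 7776 and 336 higher in the same order. Presynaptic medians were -0.091, -0.025 and -0.072, and postsynaptic medians 0.069, -0.12 and -0.35. Signs of 21, 18 and 26 of the 52 genes turned in those comparisons, and the 20, 7 and 10 that were called under either scaling follow. They were at day 3 against day 0 Stx1a 0.97, Vamp2 0.68, Syt1 0.014, Syt5 0.47, Syt11 0.22, Cplx1 0.12, Cplx2 0.18, Syp 0.14, Syngr1 0.025, Sv2a 0.11, Syn1 0.17, Rab3a 0.15, Nrxn2 0.47, Dlg4 0.19, Shank1 0.037, Shank2 0.035, Shank3 0.88, Nlgn3 0.91, Camk2a 0.18 and Camk2b 0.10 (log2 fold changes). At day 21 against day 0 they were Snap25 0.12, Vamp2 0.21, Napb 0.073, Syt11 0.064, Cplx2 0.22, Slc17a6 0.11 and Lrrtm1 0.024. At day 21 against day 3 they were Vamp1 -0.083, Vamp2 -0.47, Syt11 -0.16, Cplx1 -0.28, Syngr1 -0.23, Syn2 -0.032, Rab3a -0.028, Rph3a -0.061, Amph -0.023 and Dlg4 -0.34. Summed with Gm21986, Nlgn3 turned to -0.54 at day 21 against day 0.

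Libraries with the same replicate number shared only the number: their deviations from the group means correlated at -0.15 to 0.11, and 1 of 9 libraries correlated best with its own number. With the replicate block 39 genes were lower and 3 higher at day 3 against day 0, 24 lower at day 21 against day 0, and 13 higher and 3 lower at day 21 against day 3. Syn3, Pclo, Dlg2 and Nlgn1 are limited by the spread of day 21 replicate 2, and Slc17a8, Homer1, Unc13b and Nlgn1 by low levels of under 1 FPKM on average.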
